A study of Caenorhabditis elegans with 6 samples.

Results

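Fatty acid oxidation was followed through the transcripts of 10 enzyme genes, 6 for the mitochondrial pathway (acs-2, cpt-1, cpt-2, hacd-1, acdh-10 and acdh-12) and 4 for the peroxisomal pathway (acox-1.1, maoc-1, dhs-28 and daf-22). The genes were taken by name from the deposited counts table, which holds 46748 genes, and all 10 were found and passed the filter on low counts. Every library came from intact animals of Caenorhabditis elegans, hermaphrodites of wild-type N2 taken 2 days after L4, the last larval stage. Strain, sex and age were thus shared, and the groups differed in the RNAi treatment. The control group carried L4440, the empty vector of RNAi by feeding, and the other group received RNAi against T25B9.1, which encodes the worm counterpart of glycine C-acetyltransferase, a mitochondrial enzyme of threonine breakdown. Each group held 3 libraries, and the labels give neither the number of worms in a library nor say that replicates were grown as separate cultures. The p-values therefore measure only how far these samples spread, and that spread may be technical. In RNA from whole worms, fewer cells of a type and less RNA per cell cannot be told apart.

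Beta-oxidation shortens fatty acids by cutting acetyl units from an activated acyl chain in 4 repeated reactions, a dehydrogenation, a hydration, a further dehydrogenation and a thiolytic cut. In mitochondria the chain is activated by an acyl-CoA synthetase, carried across the membranes on carnitine and then oxidised for energy. Peroxisomes use a separate set of enzymes, whose opening reaction is catalysed by an acyl-CoA oxidase that makes hydrogen peroxide. In C. elegans the peroxisomal route is best known for trimming the side chains of ascarosides, the small molecules that include the dauer pheromone.

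The libraries held 26125982 to 40726259 counts, and a single enzyme gene received 612 to 12453 counts in a library. Levels are given as CPM, counts relative to the size of the library after TMM scaling. The RNAi target T25B9.1 had means of 5.79 ± 0.721 CPM (L4440) and 1.61 ± 0.222 CPM (RNAi; both SD, n = 3), with no overlap between the groups. Its adjusted p in edgeR's quasi-likelihood test was 0.0525, and it passed the threshold with RLE factors (adjusted p = 0.0346), without the filter (1.95e-07) and in DESeq2 (1.28e-11), in a range up to 0.307 without L4440 replicate 1. T25B9.1 RNAi replicate 1 stood apart in markers of hypodermis, pharynx and body wall muscle. The moulting, pharynx and neuron lists were included because earlier results of these data showed them moving in 1 library. Their movement here is therefore not a separate finding. Over 11 hypodermis and moulting genes its summed level was 558 CPM, against 192 to 284 CPM in the other 5 libraries, and over 6 pharynx genes it was 197 CPM against 56.1 to 81.3 CPM. Over 6 body wall muscle genes it was 1452 CPM against 728 to 1075 CPM. The 7 neuron genes summed to 225 to 261 CPM in all 6 libraries, but by their median they also stood apart. Their median log2 level over the L4440 mean was 0.66 in T25B9.1 RNAi replicate 1, against -0.071 to 0.088 in the other 5 libraries. The 10 intestine markers summed to 2725 to 3013 CPM and the 6 oocyte markers to 6234 to 6873 CPM in all 6 libraries. By the same median, T25B9.1 RNAi replicate 1 was highest for intestine, at 0.105 against -0.052 to 0.044. It was lowest for oocyte, at -0.137 against -0.054 to 0.026. The 6 sperm markers summed to 0.276 to 0.789 CPM.

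None of the 10 oxidation genes passed an adjusted p of 0.05 in edgeR's quasi-likelihood test over 13374 genes. That test called 0% of all genes, and none of the 10 had an unadjusted p under 0.05, a mark reached by 6.18% of all genes tested. DESeq2 also called none of the 10. The log2 fold changes ran from -0.46 for acs-2 to 0.20 for hacd-1. Of the 10, 7 lay below 0, against 49.4% of all genes tested, and their median was -0.043 beside 0.0024 for all genes. For 7 of the 10 the 95% interval of the difference lay within 1.25-fold either way, which held for 33.7% of all genes tested (the limit of 1.25 was chosen after the values were seen). The remaining 3 were acs-2, hacd-1 and daf-22. These shares are not like for like. All 10 had means above 10 CPM, a level reached by 7179 of the 13374 genes tested, and the share among those was not computed.

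**Figure D1:**
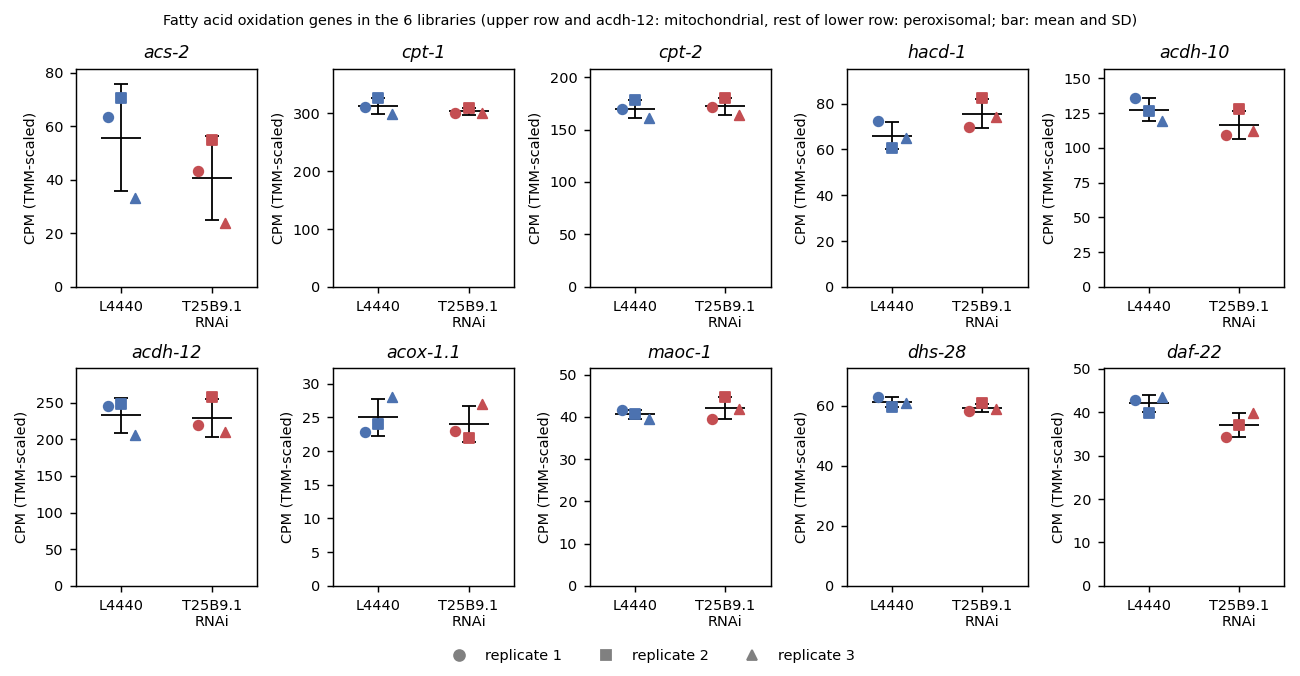
Each panel plots 1 gene, with TMM-scaled CPM on the vertical axis from 0 and the L4440 (blue) and T25B9.1 RNAi (red) libraries side by side; the symbol shape gives the replicate and the bar the mean and SD of 3 libraries. The libraries of acs-2 spread from 23.8 to 70.7 CPM, and daf-22 is the panel in which the groups do not overlap.

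The level of each transcript was compared between genes after division by the length of its exons. In the L4440 libraries acdh-12 and cpt-1 stood highest, at 114 ± 11.7 and 111 ± 4.97 CPM per kb of exon (SD, n = 3). These 2 overlapped. They were followed by acdh-10 (92.1 ± 6.03 CPM per kb), cpt-2 (79.5 ± 4.17) and hacd-1 (64.5 ± 5.7), each of whose 3 control libraries lay above those of the next gene. The peroxisomal genes came lower, with dhs-28 at 43.4 ± 1.21, maoc-1 at 38.2 ± 1.05 and daf-22 at 31.5 ± 1.5 CPM per kb. The mitochondrial acs-2, at 26.8 ± 9.6 CPM per kb, overlapped daf-22, and acox-1.1 was lowest at 9.93 ± 1.08. The order of the 10 means was the same in the RNAi libraries, where acdh-12 was at 112 ± 12.6 and acox-1.1 at 9.53 ± 1.07 CPM per kb.

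**Figure D2:**
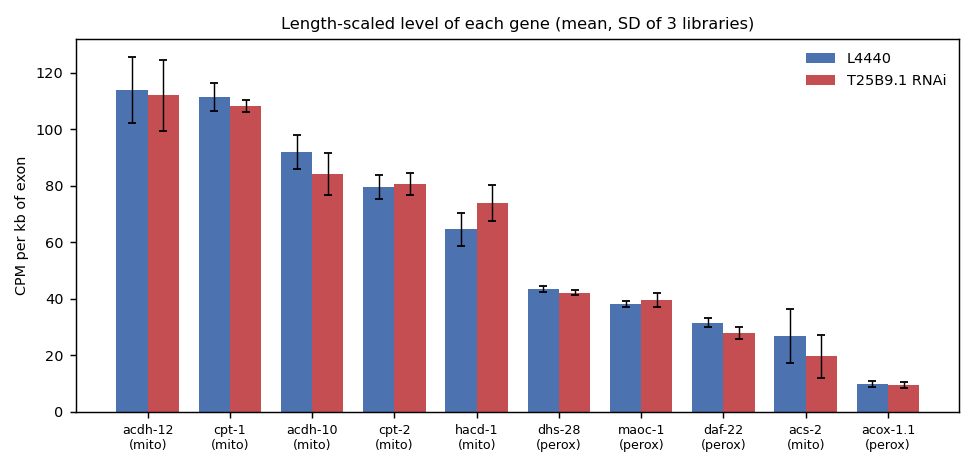
Bars give the mean level in CPM per kb of exon (linear axis from 0) for each gene in L4440 (blue) and T25B9.1 RNAi (red) libraries, with the SD of 3 libraries, ordered by the L4440 mean and marked as mitochondrial or peroxisomal. Of the 6 mitochondrial genes 5 stand above all 4 peroxisomal genes, and acs-2, at 26.8 CPM per kb with L4440, stands among the lowest.

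The entry of fatty acids into mitochondria begins with acs-2, an acyl-CoA synthetase gene known to be induced by fasting through the nuclear hormone receptor NHR-49. The gene (WBGene00009221) lies on the plus strand of chromosome V from 15567394 to 15569897 in build WBcel235. It was at 63.6, 70.7 and 33.05 CPM in L4440 replicates 1, 2 and 3, and at 43.4, 55.0 and 23.8 CPM in the T25B9.1 RNAi replicates. The third library of each group was the lowest of its group, and the groups overlapped. The mean was 55.8 ± 20.0 CPM in the controls and 40.7 ± 15.8 CPM under RNAi (SD, n = 3). On the log2 scale the difference was -0.46 (SE 0.327, 95% interval -1.2 to 0.28). In edgeR's test the unadjusted p was 0.193 and the adjusted p was 0.727.

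The spread of acs-2 between libraries was wide for its level. Its highest library was 2.97 times its lowest, a ratio that 30 of the 7179 tested genes with a mean of at least 10 CPM (0.418%) reached or passed, beside a median ratio of 1.22 over those genes. The other 9 oxidation genes had ratios of 1.08 to 1.36. The minimum of 10 CPM was set after the values were seen. The log2 fold change of acs-2 was -0.18 without T25B9.1 RNAi replicate 3 and -0.24 without L4440 replicate 2, and it was -0.73 without L4440 replicate 3 and -0.76 without T25B9.1 RNAi replicate 2.

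The library titles carry the numbers 13, 17 and 21 for L4440 and 14, 18 and 22 for T25B9.1 RNAi, and acs-2 followed these numbers. Its log2 ratio of RNAi over L4440 was -0.55 between libraries 13 and 14, -0.36 between 17 and 18 and -0.47 between 21 and 22. It was therefore lower with RNAi in each of the 3 pairs of consecutive numbers, as were 18.6% of all genes tested. With the consecutive numbers as a block the difference stayed at -0.46 while its SE was 0.0662, and edgeR gave an unadjusted p = 0.00018 and an adjusted p = 0.174. By that p acs-2 ranked 13th of 13374 genes. In the same fit 10.9% of all genes had an unadjusted p under 0.05 (1457 genes, against 826 without the block), and 0 genes passed the adjusted threshold. The labels do not say that consecutive numbers share a culture or a day.

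**Figure D3:**
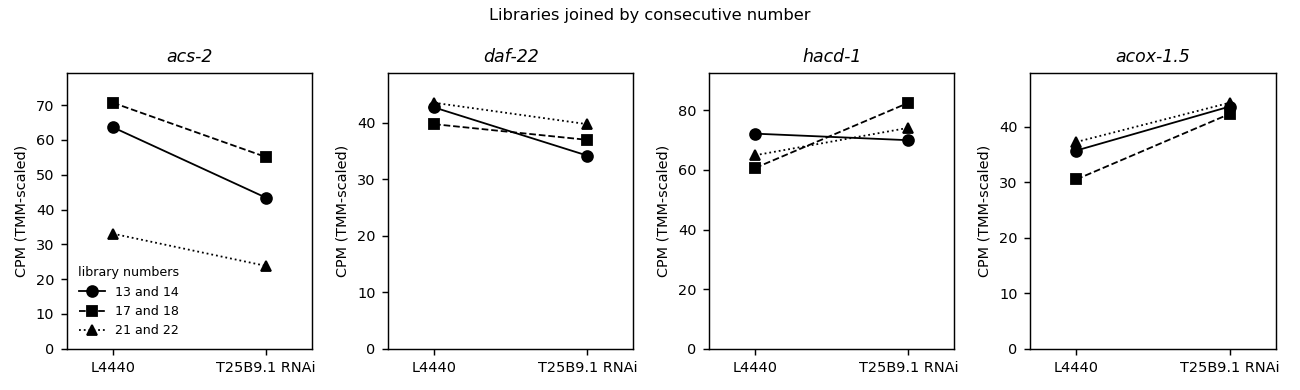
TMM-scaled CPM (axis from 0) of acs-2, daf-22, hacd-1 and acox-1.5 in L4440 and T25B9.1 RNAi libraries, with lines joining libraries of consecutive number in the titles (13 and 14, 17 and 18, 21 and 22). All 3 lines of acs-2 go down from different starting levels and all 3 of daf-22 go down, while for hacd-1 the line of 13 and 14 goes down and the other 2 go up.

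After activation the acyl chain is passed to carnitine by cpt-1, the carnitine palmitoyltransferase of the outer mitochondrial membrane, and back to CoA by cpt-2, its counterpart at the inner membrane. cpt-1 (chromosome II, minus strand, 12788244 to 12796452) was at 311, 327 and 299 CPM with L4440 and at 301, 310 and 300 CPM with RNAi. Its groups overlapped, with a log2 fold change of -0.043 (SE 0.0669, 95% interval -0.19 to 0.11, edgeR adjusted p = 0.864). cpt-2 (chromosome IV, plus strand, 11179645 to 11183008) was at 170, 179 and 161 CPM with L4440 and at 172, 180 and 164 CPM with RNAi. Replicate 2 was the highest and replicate 3 the lowest in each group. The log2 fold change of cpt-2 was 0.019 (SE 0.0701, 95% interval -0.14 to 0.18, edgeR adjusted p = 0.946), and its sign turned without L4440 replicate 3 or without T25B9.1 RNAi replicate 2.

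The opening dehydrogenation of the chain belongs to acyl-CoA dehydrogenases, of which acdh-12 is the very-long-chain type and acdh-10 the medium-chain type by similarity to the mammalian enzymes. acdh-12 was at 245, 248 and 205 CPM with L4440 and at 219, 258 and 210 CPM with RNAi. Its groups overlapped, with L4440 replicate 3 the lowest and RNAi replicate 2 the highest of the 6 libraries, and its log2 fold change was -0.024 (SE 0.104, 95% interval -0.26 to 0.21, edgeR adjusted p = 0.957). That sign turned when library totals replaced TMM scaling and when L4440 replicate 1, L4440 replicate 2, T25B9.1 RNAi replicate 1 or T25B9.1 RNAi replicate 3 was left out. acdh-10 (chromosome X, minus strand, 17213144 to 17214903) was at 136, 127 and 119 CPM with L4440 and at 109, 128 and 112 CPM with RNAi. RNAi replicates 1 and 3 lay below all 3 control libraries and RNAi replicate 2 lay among them. The log2 fold change of acdh-10 was -0.13 (SE 0.0822, 95% interval -0.32 to 0.056, edgeR adjusted p = 0.717), and -0.22 without T25B9.1 RNAi replicate 2 and -0.081 without L4440 replicate 1.

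The next-to-last reaction uses a 3-hydroxyacyl-CoA dehydrogenase, encoded among others by hacd-1, a further gene known to depend on NHR-49. hacd-1 (WBGene00019978; chromosome V, plus strand, 1460369 to 1461613) was at 72.2, 60.7 and 65.0 CPM with L4440 and at 70.0, 82.6 and 74.2 CPM with RNAi. RNAi replicates 2 and 3 lay above all control libraries, and RNAi replicate 1 lay below L4440 replicate 1. The means were 65.9 ± 5.82 and 75.6 ± 6.4 CPM (SD, n = 3), or 0.20 on the log2 scale (SE 0.088, 95% interval -0.0024 to 0.40). In edgeR's test hacd-1 had an unadjusted p = 0.0523 and an adjusted p = 0.717, and with the block an adjusted p = 0.459. Without T25B9.1 RNAi replicate 2 its log2 fold change was 0.11. Between consecutive numbers its log2 ratio was -0.045 for 13 and 14, 0.44 for 17 and 18 and 0.19 for 21 and 22. The fold changes of acs-2 and hacd-1 were of opposite sign, neither past the threshold. The nhr-49 transcript had means of 114 ± 6.33 and 119 ± 2.33 CPM in control and RNAi libraries (SD, n = 3, adjusted p = 0.796, edgeR). The activity of NHR-49 was not tested.

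In the peroxisome the chain is opened by acox-1.1, an acyl-CoA oxidase on the plus strand of chromosome I from 12938555 to 12942227. It was at 22.9, 24.1 and 28.1 CPM with L4440 and at 23.01, 21.9 and 27.03 CPM with RNAi. The third library of each group was the highest, the reverse of acs-2, and the groups overlapped. Its log2 fold change was -0.057 (SE 0.112, 95% interval -0.31 to 0.20, edgeR adjusted p = 0.897), and it was 0.032 without L4440 replicate 3 and -0.15 without T25B9.1 RNAi replicate 3. The gene stands at the start of a row of 4 related oxidase genes on the same strand, with acox-1.2 only 52 bases downstream and acox-1.3 and acox-1.4 beyond it, so reads from the copies may be shared and these counts are uncertain to that extent. acox-1.2 was at 22.7 ± 5.84 and 23.6 ± 4.82 CPM, acox-1.3 at 1.22 ± 0.195 and 0.984 ± 0.272 CPM, and acox-1.4 at 19.5 ± 1.22 and 17.4 ± 1.01 CPM with L4440 and RNAi (SD, n = 3).

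The hydration is assigned to maoc-1, an enoyl-CoA hydratase, and the second dehydrogenation to dhs-28, a 3-hydroxyacyl-CoA dehydrogenase. maoc-1 was at 41.7, 40.6 and 39.5 CPM with L4440 and at 39.5, 44.8 and 41.9 CPM with RNAi, with 2 of the RNAi libraries above the controls and 1 at the level of the lowest control. Its log2 fold change was 0.051 (SE 0.0736, 95% interval -0.12 to 0.22, edgeR adjusted p = 0.852), and -0.014 without T25B9.1 RNAi replicate 2. dhs-28 (chromosome X, plus strand, 6818438 to 6820080) was the steadiest of the 10, at 63.1, 59.7 and 60.8 CPM with L4440 and at 58.4, 60.9 and 58.9 CPM with RNAi. Its highest library was 1.08 times its lowest, and its log2 fold change was -0.043 (SE 0.061, 95% interval -0.18 to 0.095, edgeR adjusted p = 0.850).

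The thiolase daf-22, which makes the final cut and without which worms lack short-chain ascarosides, was the 1 oxidation gene whose groups did not overlap. The gene (WBGene00013284) lies on the minus strand of chromosome II from 12423518 to 12425694. It was at 42.8, 39.8 and 43.6 CPM with L4440 and at 34.2, 37.005 and 39.8 CPM with RNAi. The lowest control library and the highest RNAi library were only 0.00701 CPM apart. Across all genes tested, 5.32% had RNAi libraries wholly below the controls and 5.53% wholly above, so 1 of 10 oxidation genes lower and 0 of 10 higher is near that background. The means of daf-22 were 42.04 ± 1.99 and 36.998 ± 2.78 CPM (SD, n = 3), or -0.18 on the log2 scale (SE 0.0808, 95% interval -0.37 to 0.00031). edgeR gave an unadjusted p = 0.0503 and an adjusted p = 0.717.

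With the block of consecutive numbers daf-22 had a log2 fold change of -0.18 (SE 0.0708), an unadjusted p = 0.0337 and an adjusted p = 0.451 in edgeR, and ranked 981st by p. Its log2 ratio was -0.32 between libraries 13 and 14, -0.10 between 17 and 18 and -0.13 between 21 and 22. acs-2 and daf-22 were the 2 of the 10 genes that were lower in all 3 pairs and the 2 with an unadjusted p under 0.05 in that fit of edgeR. Over all genes the shares were 18.6% and 10.9%. The lowest daf-22 library was T25B9.1 RNAi replicate 1, the one with the high moulting, pharynx and muscle markers, which was also the lowest of the 6 for acdh-10 and dhs-28. Without it the log2 fold change was -0.13 for daf-22 and -0.089 for acdh-10, and the part of those marker tissues in these values was not tested.

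By compartment, the 6 mitochondrial genes summed to 998, 1012 and 883 CPM in the L4440 libraries and to 914, 1014 and 884 CPM in the RNAi libraries. Replicate 2 was highest and replicate 3 lowest in each group. The 4 peroxisomal genes summed to 170, 164 and 172 CPM with L4440 and to 155, 165 and 168 CPM with RNAi. The median log2 fold change was -0.033 for the mitochondrial and -0.050 for the peroxisomal genes, and the mitochondrial median was 0.015 without L4440 replicate 2 and -0.11 without T25B9.1 RNAi replicate 2. L4440 replicate 3 was the lowest of the 6 libraries for 4 of the 10 genes, and T25B9.1 RNAi replicate 2 was the highest for 4.

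Some oxidation genes sit beside each other or beside other genes of the pathway. On chromosome II acdh-12 (minus strand, 7192429 to 7195641) and maoc-1 (plus strand, 7196276 to 7197495), of the mitochondrial and the peroxisomal route, face away from each other with 634 bases between them. Their levels differed, at 114 ± 11.7 and 38.2 ± 1.05 CPM per kb with L4440 (SD, n = 3), and their log2 fold changes were -0.024 and 0.051. acdh-7, a further acyl-CoA dehydrogenase gene, ends 114 bases from acdh-10 on the same strand and had means of 114 ± 5.46 and 103 ± 7.27 CPM (log2 fold change -0.15, SE 0.073, edgeR adjusted p = 0.717). Its neighbour acdh-10 had -0.13. The peroxisome import gene prx-14 starts 123 bases after cpt-2 on the same strand and was at 84.7 ± 8.44 and 76.9 ± 6.95 CPM, a log2 fold change of -0.14, beside 0.019 for cpt-2. The exons of 3 oxidation genes overlap a gene on the opposite strand, acdh-12 with E04F6.4 by 80 bases, maoc-1 with E04F6.6 by 105 bases and dhs-28 with gei-15 by 76 bases. The library kit does not mark strand, so reads in these stretches cannot be assigned. These partners stood at 4.61, 3.75 and 7.02 CPM with L4440.

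The wider pathway was described through 63 further genes in 7 lists, of which 62 had a row in the table and 60 were tested. None passed the adjusted threshold in either direction in edgeR, and 3 of 60 had an unadjusted p under 0.05 (2 higher, 1 lower), beside 6.18% of all genes tested. Of the 60, 36 lay below 0 and 24 above, beside 49.4% of all genes below 0, and the median log2 fold change was -0.055, beside 0.0024. The RNAi libraries lay wholly below the controls for 2 of the 60 and wholly above for 3, beside 5.32% and 5.53% of all genes tested. The lowest p belonged to acox-1.5, another peroxisomal acyl-CoA oxidase gene (chromosome III, minus strand, 9586618 to 9592192). It was at 35.7, 30.5 and 37.3 CPM with L4440 and at 43.6, 42.3 and 44.3 CPM with RNAi, with no overlap. Its log2 fold change was 0.33 (SE 0.0873, 95% interval 0.13 to 0.53), with an unadjusted p = 0.00422, which ranked 38th, and an adjusted p = 0.717 in edgeR. DESeq2 gave it an adjusted p of 0.356. acox-1.5 thus stood at 34.5 ± 3.53 and 43.4 ± 1.03 CPM, while acox-3, of the same enzyme class, was at 24.1 and 24.2 CPM.

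Among the 5 other genes of the carnitine shuttle 3 lay below 0, with a median of -0.12. In that list dif-1, which encodes the carrier that takes acylcarnitine across the inner membrane, was at 98.9, 91.1 and 90.1 CPM with L4440 and at 79.9, 88.3 and 81.1 CPM with RNAi, with no overlap. Its log2 fold change was -0.17 (SE 0.0692, unadjusted p = 0.0384, adjusted p = 0.717, edgeR). cpt-6 was at 19.9 ± 2.31 and 21.2 ± 0.0529 CPM. Of the 9 tested acyl-CoA dehydrogenase genes besides the 2 above, 5 lay below 0 (median -0.069), as for acdh-3 at 157 ± 13.3 and 139 ± 21.1 CPM. acdh-5 and acdh-8 did not pass the filter on low counts.

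Of 15 hydratase and thiolase genes 11 lay below 0, with a median of -0.098. The predicted enoyl-CoA hydratase gene ech-3 was at 9.16, 10.04 and 10.6 CPM with L4440 and at 11.4, 12.6 and 12.02 CPM with RNAi, without overlap (log2 fold change 0.27, SE 0.109, unadjusted p = 0.0348, adjusted p = 0.717, edgeR). ech-9 was at 0.947 ± 0.679 and 0.486 ± 0.0748 CPM, a low level at which L4440 replicate 2 alone stood above 1 CPM, and its difference of -0.99 on the log2 scale (SE 0.484, adjusted p = 0.717, edgeR) was -0.22 without that library. The 3 genes that pass electrons from acyl-CoA dehydrogenases to the respiratory chain all lay below 0 (median -0.061). F23C8.5, the beta subunit of the electron transfer flavoprotein, was at 161 ± 12.4 and 141 ± 13.4 CPM, and the alpha subunit F27D4.1 at 212 ± 17.4 and 204 ± 20.2 CPM (edgeR adjusted p of 0.717 and 0.860).

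**Figure D4:**
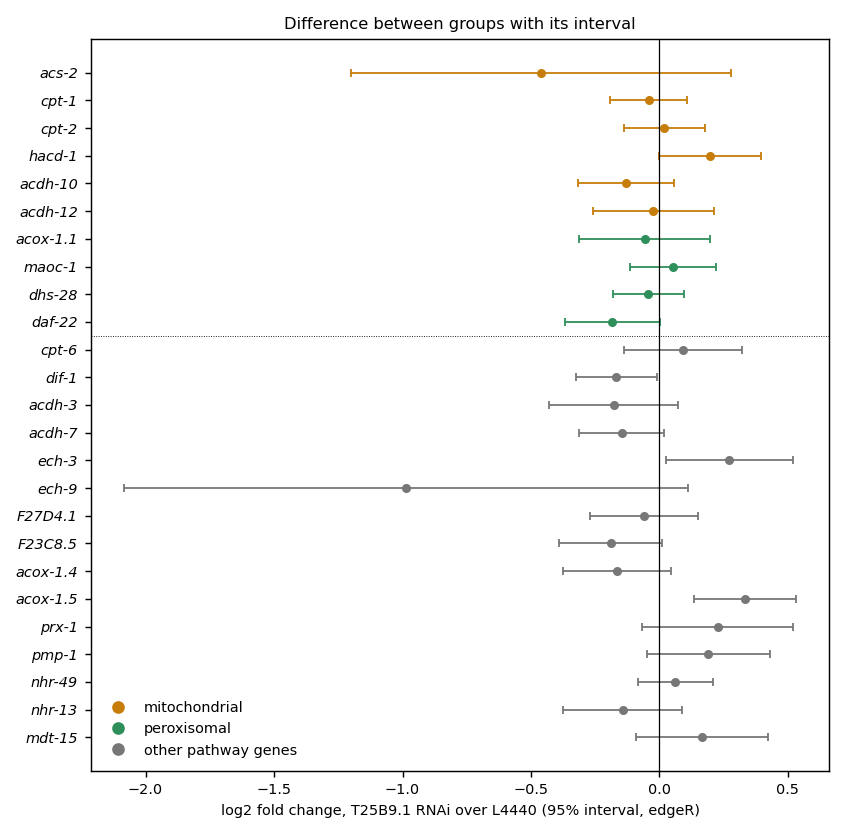
Points give the log2 fold change of T25B9.1 RNAi over L4440 in edgeR's fit and lines its 95% interval, for the 10 enzyme genes (orange mitochondrial, green peroxisomal, above the dotted line) and the named genes of the wider pathway (grey). The interval of acs-2 is the widest of the 10, from -1.2 to 0.28, and those of acox-1.5, ech-3 and dif-1 do not include 0.

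Of the 6 other acyl-CoA oxidase genes 3 lay above 0 and 3 below (median -0.033), with acox-1.4 at a log2 fold change of -0.17 (SE 0.0926). The 17 genes of peroxisomal protein import and membrane transport had 9 above 0 and 8 below, with a median of 0.0008. In that list prx-1, a peroxin of the import machinery, was at 5.41 ± 0.0546 and 6.34 ± 0.294 CPM without overlap (edgeR adjusted p = 0.717), and pmp-1, an ABC half-transporter, at 18.3 ± 1.59 and 20.8 ± 1.99 CPM. The 5 regulators, nhr-49 with its partner receptors and the Mediator subunit mdt-15, had a median of -0.018. mdt-15 was at 161 ± 19.1 and 180 ± 23.8 CPM, and its log2 fold change of 0.16 was 0.049 without T25B9.1 RNAi replicate 1. The receptor gene nhr-13 was at 17.8 ± 0.915 and 16.1 ± 1.53 CPM, with a log2 fold change of -0.14 that was -0.071 without the same library.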

How the data were processed

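Per the labels' protocols, 6 libraries were prepared from total RNA (TruSeq RNA Library Preparation Kit v2). The values used are the deposited raw counts. The submitters' processing notes name featureCounts 1.4.6-p4, STAR 2.4.1d, bcl2fastq 1.8.4 and build WBcel235. Not given in the sources used here are the counting options and the annotation release. A second deposited table named RPKM was not used, because its factor to the counts differed between libraries beyond depth. Names, positions and exon lengths came from Ensembl release 115 of the same build, in which 46449 of 46748 identifiers had a gene model; 1 listed name was not matched.

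Groups came from the perturbation in the labels. Genes were filtered with filterByExpr (13374 of 22665 with at least 1 count), normalised by TMM and entered into the 2-sided quasi-likelihood test of edgeR 4.0.16 under R 4.3.3 (glmQLFit, glmQLFTest). Benjamini-Hochberg adjustment ran over all tested genes, with a threshold of 0.05. The SE is the log2 fold change divided by the square root of F. No library was a copy of another, since the chi-square per gene was 7.01 or more for each pair.

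Deviations from the group mean correlated by 0.216, 0.418 and 0.285 across genes between libraries 13 and 14, 17 and 18, and 21 and 22, each over 0.1. The chi-square per gene was 7.01 between 17 and 18 and 11.1 between 21 and 22. Between 13 and 14 it was 52.6, the largest of all pairs. Because of the correlations, values with these numbers as a block are given beside the results they move. The block is a hint from the data and not from the labels. Other alternatives were RLE factors, library totals, DESeq2 1.42.0, limma-voom (limma 3.58.1), no filter, a stricter filter (1 CPM and 10 counts in 3 libraries) and each library left out. The genes named are the 10 members, T25B9.1, nhr-49 and, in each pathway list, up to 2 tested genes with the smallest p, with others named for their position, size class or count after their values were seen. Members and lists were chosen with earlier results of these data known.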

Additional observations from a re-analysis of the deposited data

How the results depend on the processing

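No alternative called any of the 10 oxidation genes at an adjusted p under 0.05. An unadjusted p under 0.05 in edgeR was reached by 1 of the 10 with RLE factors (836 of 13374 genes) and with library totals (763 of 13374). It was reached by 2 with no filter (1582 of 22665), the stricter filter (640 of 11453) and the block of consecutive numbers (1457 of 13374). With any 1 library left out, 1 of the 10 reached it (313 to 1398 of all genes). In DESeq2 and limma-voom none did. Over all genes, edgeR called 0 higher and 0 lower, DESeq2 10 and 4, edgeR with no filter 123 and 16, RLE factors 0 and 1 (T25B9.1), and with 1 library left out 0 to 1 higher and 0 lower. Of 337 values of 26 named genes under an alternative, 323 kept direction and side of the threshold, 3 (T25B9.1 with RLE factors, DESeq2 or no filter) passed it, and 11 changed sign. With library totals acdh-12 was at 0.0017. With 1 library left out, log2 fold changes ran from -0.034 to 0.065 for cpt-2, -0.14 to 0.035 for acdh-12, -0.15 to 0.032 for acox-1.1, -0.014 to 0.090 for maoc-1, -0.00042 to 0.17 for cpt-6 and -0.16 to 0.00077 for F27D4.1; the cause was not tested. The median over the 10 genes stayed between -0.077 and -0.017 under every alternative run, with an SD of the library medians of 0.0463 (L4440) and 0.0397 (RNAi). Consecutive library numbers as a replicate block left the count of calls at 0 and changed no member's call. With 3 libraries a group, the widest interval among the 10 oxidation genes, that of acs-2, spans 0.435-fold to 1.21-fold.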
